A study of Mus musculus with 62 samples.

Results

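The brown adipose tissue of mice injected with non-cachectic melanoma cells (NCAC) was compared between 8 weeks and 2 weeks after injection. The 10 libraries were chosen by their labels alone: 5 libraries of NCAC at 8 weeks and 5 of NCAC at 2 weeks, out of 62 libraries in the series. The study followed female mice, all labelled with an age of 2 months, that received cachectic melanoma cells (CAC), NCAC cells or a mock injection (Con), with brown fat sampled 2, 4, 6 or 8 weeks later. The labels link no library of 1 week to a library of another week, so the change over time is a difference between separate groups. The sample labels give the strain as C57BL/6J and the series text describes NCI Ath/nude mice. Neither the melanoma lines nor tumour size or body weight are given in the labels. The groups set beside NCAC were CAC at 8 weeks (7 libraries) and at 2 weeks (5), and Con at 8 weeks (5) and at 2 weeks (5). NCAC, CAC and Con share no library. The replicates are described as biological, with no statement on pooling.

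Brown adipose tissue burns fatty acids and glucose to make heat. Cold or feeding activates sympathetic nerves, noradrenaline acts on the beta-3 receptor (Adrb3), and lipid droplets are broken down to fuel mitochondria that uncoupling protein 1 (Ucp1) lets run without making ATP. In cachexia, the wasting that accompanies some tumours, fat is lost, and inflammatory cytokines such as IL-6 drive an acute phase response, the release of defence proteins such as haptoglobin and serum amyloid A. A tumour arm without cachexia, followed over the same weeks, shows what the tissue does when a tumour is present and these signals may be absent.

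Values were TPM, a transcript level scaled for length and library total, so levels can be set side by side between genes. TPM keeps no read total, and the depth of the libraries is therefore unknown. The labelled tissue matched its markers in the 10 libraries: Ucp1 lay between 4040 and 9370 TPM, Cidea between 1380 and 1850 TPM, and the brown adipocyte transcription factor Ebf2 between 7.22 and 14.3 TPM. Skeletal muscle RNA was present as well, with the muscle actin Acta1 between 333 and 2710 TPM. The T cell receptor component Cd3e was at 0 in 5 of the 10 libraries and reached at most 0.0577 TPM, and Cd8b1 was at 0 in 8 of 10. Other T cell markers were low but above 0 in all 10 libraries. Trac lay between 0.0416 and 0.777 TPM, Trbc1 between 0.0578 and 0.515 TPM and Cd4 between 0.0101 and 0.177 TPM. The pigment cell enzyme Tyr was at 0 in 9 of 10 libraries with a maximum of 0.0061 TPM. The pigment cell markers Dct (0.242 to 0.715 TPM) and Pmel (0.126 to 1.38 TPM) were above 0 in all 10. Mlana was at 0 in 2 of 10, with a maximum of 1.01 TPM. Pearson correlations between the 10 libraries on the log2 scale lay between 0.961 and 0.989. Elsewhere in the series the third CAC library of 8 weeks stood apart from the other 6 of its group, and the comparison with CAC closes with the values obtained without it.

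No gene passed the test between NCAC at 8 weeks and NCAC at 2 weeks. Of 12581 genes tested with limma on log2(TPM + 1), 0 (0%) had a Benjamini-Hochberg adjusted p under 0.05, the threshold for a call, and the smallest adjusted p was 0.603. At an unadjusted p under 0.05 there were 492 genes, 3.91% of those tested, with 128 (1.02%) higher and 364 (2.89%) lower at 8 weeks. The median log2 difference (8 minus 2 weeks) over all genes was -0.03, and 0.0018 after the libraries were rescaled to a common median ratio. The data bound the difference for most genes: the unadjusted 95% interval lay wholly within 1 log2 unit of 0 for 11936 genes (94.9%) and within 0.5 units for 9267 (73.7%). The interval's half-width had a median of 0.26. Only 34 genes had a fitted log2 difference beyond 1 in size, 18 of them higher and 16 lower at 8 weeks. All 5 libraries of 8 weeks lay above all 5 of 2 weeks for 26 genes (0.207%), and below them for 183 genes (1.45%). In the same model 2581 genes (20.5%) were called for CAC at 8 against 2 weeks, 1882 (15%) higher and 699 (5.56%) lower, or 3823 without the third CAC library of 8 weeks. For Con at 8 against 2 weeks 4 (0.0318%) were called, all lower, but 2553 had an unadjusted p under 0.05, of which 2336 were lower, and 1299 were called when the Con groups were fitted alone. A p that misses the threshold does not show that the weeks were equal, and the log2(TPM + 1) scale understates differences of low genes.

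**Figure D1:**
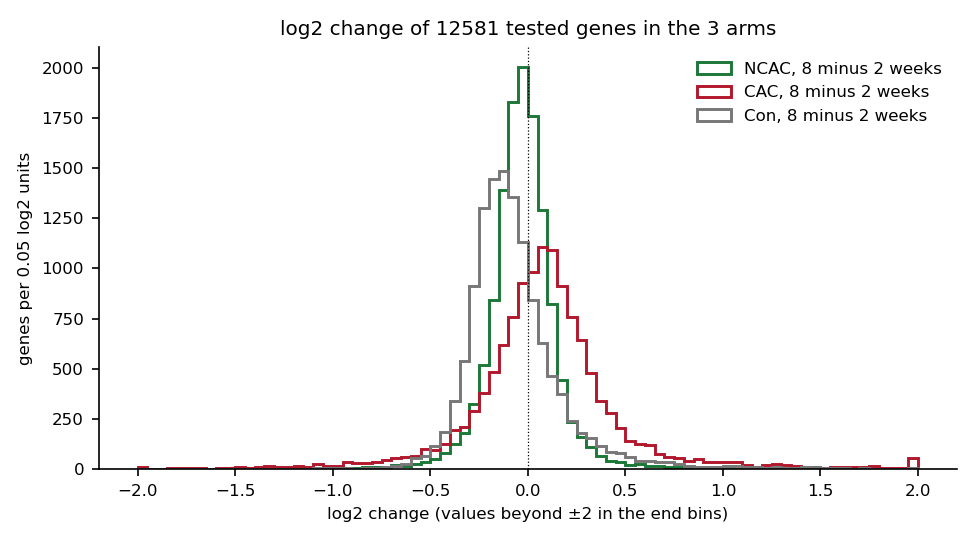
Histogram of the log2 difference between 8 and 2 weeks for the 12581 tested genes, in bins of 0.05, for NCAC (green), CAC (red) and Con (grey). The NCAC values are the most tightly gathered around 0 (median size of the difference 0.09, against 0.18 in CAC and 0.16 in Con), and the Con values are centred at -0.11.

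The genes named here had the smallest p in each direction among those averaging 5 TPM or more in either week, with S100a8 added beside S100a9 from the neutrophil list. None passed the test. Because they were picked by their p in this same comparison, a lack of overlap between their weeks is no further evidence. Among those with higher values at 8 weeks, the smallest p belonged to S100a9 (chromosome 3, 90692632 to 90695721, minus strand, GRCm38), a calcium-binding alarmin of neutrophils and monocytes. S100a9 measured 5.39, 8.88, 7.63, 6.97 and 4.79 TPM in the NCAC libraries of 8 weeks, against 1.63, 1.09, 1.37, 1.74 and 3.18 TPM in those of 2 weeks. Every 8-week library lay above every 2-week library. The log2 difference was 1.48 with a 95% interval of 0.76 to 2.20, and the limma p of 0.000138 became 0.603 after adjustment. S100a9 averaged 5.44 TPM at 8 weeks and 4.83 TPM at 2 weeks in Con, and 16.6 and 3.38 TPM in CAC. The NCAC mean of 2 weeks, 1.80 TPM, was thus below those of Con and CAC. The CAC difference of S100a9 was 1.89 (limma adjusted p = 3.79e-05). Its partner S100a8 (chromosome 3, 90668978 to 90670035, plus strand) measured 2.53, 2.97, 2.96, 3.04 and 1.45 TPM at 8 weeks, against 0.981, 0.351, 0.606, 0.624 and 0.836 TPM at 2 weeks. These groups did not overlap either, with a log2 difference of 1.09 (SE 0.31, adjusted p = 0.999). For S100a8 the difference was 0.29 in Con and 1.51 in CAC (limma adjusted p = 0.000144 in CAC).

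Phospho1, a phosphatase that releases choline and ethanolamine from phospholipid headgroups, measured 350, 296, 280, 217 and 208 TPM in the 8-week libraries, against 170, 94.5, 195, 153 and 191 TPM in the 2-week libraries. The groups did not overlap, and the log2 difference was 0.76 (SE 0.27, adjusted p = 0.999). Nap1l5, an imprinted member of the nucleosome assembly family, averaged 8.80 ± 2.75 TPM at 8 weeks and 4.58 ± 0.841 TPM at 2 weeks (SD, n = 5 each), again without overlap. Irak2, a kinase of the Toll-like receptor and interleukin-1 pathway, averaged 12.6 ± 1.83 TPM at 8 weeks and 8.25 ± 1.08 TPM at 2 weeks (SD, n = 5 each). Its groups were also apart. For the transcriptional cofactor Lbh, the sulfotransferase Chst11, the catalytic subunit of AMP kinase Prkaa1 and the carbonic anhydrase Car2 the weeks overlapped, with log2 differences of 0.77, 0.77, 0.40 and 0.45.

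Among genes with lower values at 8 weeks, the smallest p belonged to Mfsd3, a member of the major facilitator family of transporters. Mfsd3 measured 3.84, 4.92, 3.28, 4.31 and 5.97 TPM at 8 weeks, against 5.38, 5.69, 9.27, 7.21 and 7.38 TPM at 2 weeks. Only the highest 8-week library reached the range of the 2-week libraries (log2 difference -0.55, SE 0.13, adjusted p = 0.603). Mknk2, a kinase that phosphorylates the translation factor eIF4E, measured 103, 146, 99.9, 141 and 190 TPM at 8 weeks, against 262, 226, 206, 178 and 242 TPM at 2 weeks. Here too a single 8-week library overlapped the 2-week range, and the log2 difference was -0.73 (SE 0.19). The alcohol and retinol dehydrogenase Adh1 averaged 15.5 ± 3.73 TPM at 8 weeks and 29.1 ± 3.41 TPM at 2 weeks (SD, n = 5 each), with no overlap and a log2 difference of -0.89. No overlap was seen either for Naprt, the entry enzyme of NAD synthesis from nicotinic acid, for the scaffold protein Ahnak, for the reductase Cyb5r3 or for Auh, an enzyme of leucine breakdown. Their log2 differences were -0.43, -0.49, -0.48 and -0.26. Pdgfd, a platelet-derived growth factor, overlapped between the weeks (log2 difference -0.48). Mock-injected mice had negative log2 differences over the same weeks too, with -0.48 for Mknk2, -0.46 for Adh1, -0.27 for Pdgfd and -0.20 for Auh.

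**Figure D2:**
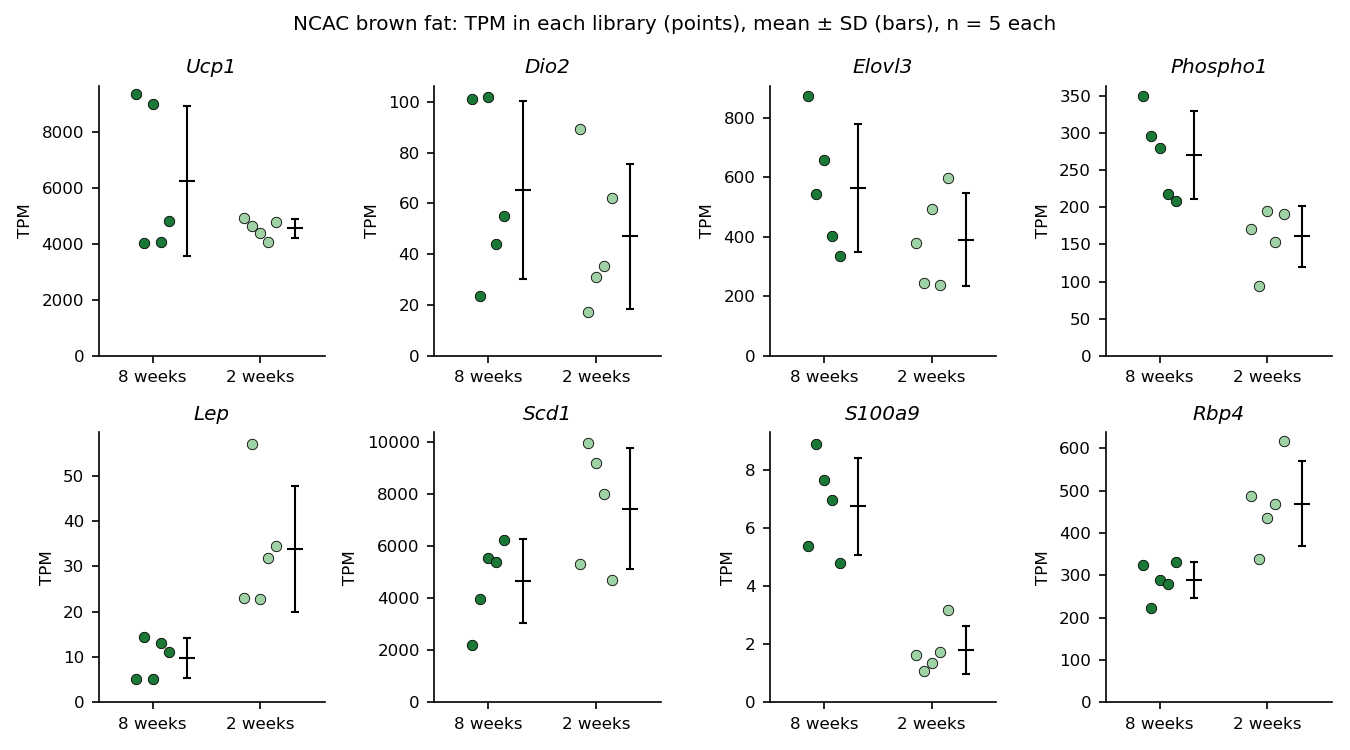
TPM of 8 genes in each NCAC library (points), with 8 weeks left of 2 weeks and the mean ± SD beside the points (n = 5 each). Phospho1, Lep, S100a9 and Rbp4 show no overlap between the weeks, while Ucp1 reaches 9370 and 9010 TPM in 2 libraries of 8 weeks and stays at or below 4950 TPM in the other 8.

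The heat-producing machinery showed no called difference. Of 30 thermogenesis genes 29 were tested, 0 were called, 16 had positive and 13 negative differences, and their median was 0.06, beside -0.03 over all genes. Ucp1 (chromosome 8, 83290352 to 83298452, plus strand) measured 9370, 4040, 9010, 4070 and 4830 TPM in the NCAC libraries of 8 weeks, against 4950, 4650, 4390, 4060 and 4780 TPM in those of 2 weeks. A pair of 8-week libraries was far above the rest and the other 3 lay in or just below the 2-week range. The log2 difference of Ucp1 was 0.35, with a 95% interval of -0.19 to 0.90. Dio2, the deiodinase that makes active thyroid hormone within the tissue, measured 101, 23.6, 102, 44.1 and 55.1 TPM at 8 weeks, against 89.3, 17.4, 30.9, 35.3 and 62.2 TPM at 2 weeks. Its groups overlapped widely (0.49, interval -0.82 to 1.79).

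Ppargc1a, the coactivator of mitochondrial gene programmes, measured 29.7, 8.12, 22.8, 13.7 and 16.4 TPM at 8 weeks, against 9.25, 8.01, 8.51, 13 and 12.5 TPM at 2 weeks. The same 8-week libraries, 1 and 3, were highest for Ucp1, Dio2 and Ppargc1a. The receptor Adrb3 averaged 85.2 ± 29.7 TPM at 8 weeks and 73.1 ± 9.79 TPM at 2 weeks (SD, n = 5 each). The fatty acid elongase Elovl3 averaged 562 ± 215 TPM at 8 weeks and 390 ± 156 TPM at 2 weeks (SD, n = 5 each). Cidea, a lipid droplet protein of brown adipocytes, averaged 1660 ± 148 and 1590 ± 129 TPM (SD, n = 5 each), with an interval of -0.17 to 0.29. Glycerol kinase (Gk) and the potassium channel Kcnk3 were the only list members with an unadjusted p under 0.05, with log2 differences of 0.88 and 0.39. The nuclear-encoded respiratory chain had a median of -0.07 over 34 genes, with 31 negative, 3 positive and 0 called, beside -0.03 over all genes. This list median was -0.03 after rescaling and -0.02 with mitochondrially encoded genes removed, and it was -0.23 in Con. Mitochondrially encoded transcripts took 59.8% ± 2.33 of TPM at 8 weeks and 58.5% ± 1.78 at 2 weeks (SD, n = 5 each). That difference of 1.27 points had a 2-sided exact permutation p of 0.341 (0.683 adjusted over the 2 library measures tested), where 252 splits allow a smallest p of 0.00794.

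Adipokine and lipid synthesis genes gave no call between the weeks. Members of these lists outside the fixed set were named for their small p in this comparison, so their lack of overlap is no further evidence. Lep (chromosome 6, 29060220 to 29073877, plus strand), the fat-derived hormone that signals energy stores, measured 5.20, 14.5, 5.11, 13.1 and 11.2 TPM at 8 weeks, against 23.1, 56.9, 22.9, 31.8 and 34.4 TPM at 2 weeks. All 8-week libraries lay below all 2-week libraries. The log2 difference was -1.72 with an interval of -2.77 to -0.66, and the adjusted p was 0.999. In Con the Lep difference over the same weeks was -0.99, and in CAC it was -1.72 (adjusted p = 0.00918). The difference between the NCAC and Con changes was not called for Lep (-0.73, adjusted p = 0.914). Rbp4, the retinol carrier secreted by fat and liver, measured 325, 224, 290, 279 and 331 TPM at 8 weeks, against 487, 338, 436, 468 and 618 TPM at 2 weeks. The weeks were apart, with a log2 difference of -0.68 (SE 0.27). Adiponectin (Adipoq) averaged 1010 ± 149 TPM at 8 weeks and 1010 ± 148 TPM at 2 weeks (SD, n = 5 each), and its interval ran from -0.26 to 0.26.

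Fatty acid synthesis genes had a median of -0.25 in NCAC, with 19 of 22 negative and 0 called, and cholesterol synthesis genes a median of -0.26 (21 of 23 negative, 0 called). Over the same weeks the medians in Con were -0.44 and -0.29. Scd1 (chromosome 19, 44394455 to 44407879, minus strand), the stearoyl-CoA desaturase, measured 2210, 3950, 5540, 5380 and 6230 TPM at 8 weeks, against 5310, 9960, 9160, 8000 and 4700 TPM at 2 weeks. The weeks overlapped, and the log2 difference was -0.70 (SE 0.28). Fatty acid synthase (Fasn) measured 2080, 3360, 2880, 3200 and 2950 TPM at 8 weeks, against 3600, 4030, 4130, 3620 and 3320 TPM at 2 weeks. A single pair of values overlapped (log2 difference -0.39, interval -0.78 to 0.01). Pnpla3, a lipid droplet lipase, averaged 125 ± 45.7 TPM at 8 weeks and 207 ± 48.7 TPM at 2 weeks (SD, n = 5 each). The cholesterol sensor partner Insig1 averaged 116 ± 35.2 TPM at 8 weeks and 196 ± 44.7 TPM at 2 weeks (SD, n = 5 each). Acat2 and Pmvk, both enzymes of the cholesterol branch, were lower in every 8-week library than in every 2-week library, with log2 differences of -0.32 and -0.43. Such a gap was seen for 3 of 23 cholesterol synthesis, 1 of 22 fatty acid synthesis and 3 of 24 fatty acid oxidation genes. Over all genes it was seen for 1.45%. The triglyceride lipase Pnpla2 averaged 1120 ± 107 and 1200 ± 107 TPM, an overlap with an interval of -0.35 to 0.15. In fatty acid oxidation, Acads, the short-chain dehydrogenase, was apart with 296 ± 27.3 TPM at 8 weeks and 358 ± 18.3 TPM at 2 weeks (SD, n = 5 each). Its log2 difference was -0.28 in NCAC and -0.39 in Con. In Con the log2 difference was -0.54 for Fasn and -0.53 for Pmvk. For Insig1 it was -0.35 in Con and -0.77 in NCAC, and for Pnpla2 -0.32 in Con and -0.10 in NCAC.

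The acute phase and IL-6 list, 25 genes all tested, had a median of -0.01 in NCAC, with 11 positive, 14 negative and 0 called. Haptoglobin (Hp) measured 94.7, 372, 157, 329 and 187 TPM at 8 weeks, against 246, 483, 183, 246 and 233 TPM at 2 weeks. The weeks overlapped and the log2 difference was -0.37, with an interval of -1.42 to 0.67. Serpina3n, a protease inhibitor of the acute phase, averaged 15.9 ± 8.31 TPM at 8 weeks and 21.3 ± 5.72 TPM at 2 weeks (SD, n = 5 each). Lipocalin 2 (Lcn2), an iron-withholding defence protein also made by epithelia, measured 7.38, 2.37, 8.27, 4.57 and 21.1 TPM at 8 weeks, against 4.38, 0.805, 7.92, 2.81 and 0.490 TPM at 2 weeks. Its groups overlapped (1.21, interval -0.35 to 2.76). Beside Lcn2, the epithelial marker Epcam measured 4.89, 2.50, 9.92, 7.51 and 21.6 TPM at 8 weeks, against 4.21, 0.976, 12.8, 3.80 and 0.305 TPM at 2 weeks. The part of epithelial RNA in the Lcn2 values was not tested.

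Glucocorticoid-responsive, clock and heat shock genes gave no call between the weeks. The 17 tested glucocorticoid-responsive genes had a median of -0.07, with 11 negative and 6 positive differences between -1.32 and 1.21. The 20 clock genes had a median of -0.20, with 13 negative and 7 positive differences between -1.02 and 0.45. The members with the smallest p are described next, so a lack of overlap among them is no further evidence. Tsc22d3, which encodes the glucocorticoid-induced leucine zipper, measured 15.4, 5.85, 12.2, 14.2 and 17.8 TPM at 8 weeks, against 37.1, 34.9, 17.4, 25.2 and 35.1 TPM at 2 weeks. The highest 8-week value just passed the lowest 2-week value (log2 difference -1.16, SE 0.46). Zbtb16, a transcription factor induced by glucocorticoids, averaged 6.16 ± 2.91 TPM at 8 weeks and 16.9 ± 6.79 TPM at 2 weeks (SD, n = 5 each). Pdk4, a kinase that holds back glucose oxidation, had a positive log2 difference of 0.55 (SE 0.31). Per2, a repressor in the circadian clock, measured 11, 5.41, 8.29, 13.2 and 11.9 TPM at 8 weeks, against 19.7, 20.1, 18, 19.5 and 20 TPM at 2 weeks. The 2-week libraries were tightly grouped and all above the 8-week libraries (log2 difference -0.95, SE 0.50). Nfil3, a clock-linked repressor, was likewise apart, with 7.59 ± 3.04 TPM at 8 weeks and 15.7 ± 3.84 TPM at 2 weeks (SD, n = 5 each), while Cry1 overlapped at a log2 difference of -0.68. Time of day at sampling is not in the labels, and its part in these values was not tested. The heat shock list had a median of -0.25, with 16 of 18 negative and 0 called. Hspa1a, an inducible chaperone, averaged 2.30 ± 2.44 TPM at 8 weeks and 6.00 ± 2.34 TPM at 2 weeks (SD, n = 5 each), and its co-chaperones Hsph1 and Dnajb1 had log2 differences of -1.16 and -0.82.

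Marker levels of other cell types were summed per library, a measure in which fewer cells of a type and less RNA per cell cannot be told apart. Macrophage markers summed to 121 to 199 TPM at 8 weeks and 97.2 to 242 TPM at 2 weeks. The median over the 12 tested macrophage markers was -0.29 (9 negative, 0 called), in which the growth factor receptor Csf1r had -0.40 and the scavenger receptor Cd163 had -0.59. Neutrophil markers summed to 8.79 to 15.1 TPM at 8 weeks and 2.32 to 5.72 TPM at 2 weeks, without overlap. In Con the sums were 7.75 to 16.5 TPM at 8 weeks and 4.58 to 12.4 TPM at 2 weeks, and in CAC 15.6 to 56.1 TPM and 4.70 to 9.34 TPM. The NCAC sum holds S100a8 and S100a9, with means of 2.59 and 6.73 TPM at 8 weeks beside a median sum of 12.3 TPM. At 2 weeks their means were 0.680 and 1.80 TPM beside a median sum of 3.91 TPM. The gap between the sums is therefore not a separate result from these 2 genes. Of the 10 members 5 passed the filter on low values, all 5 with positive differences and 0 called. Mast cell markers summed to 15.1 to 50.04 TPM at 8 weeks and 26.0 to 49.2 TPM at 2 weeks. All 13 tested members of the gland and surface epithelium list had positive differences, 0 of them called, and the sums overlapped, with 27.4 to 158 TPM at 8 weeks and 7.03 to 175 TPM at 2 weeks. The T and NK cell list had 1 of 17 genes above the filter, and its sum lay between 1.44 and 3.02 TPM at 8 weeks and 1.13 and 3.10 TPM at 2 weeks. Pigment cell markers summed to 3.56 to 10.5 TPM and 2.86 to 8.99 TPM in the 8-week and 2-week libraries. Tyr was near 0 in both weeks, while Dct and Pmel were above 0 in every library.

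Skeletal muscle markers ranged widely within both groups, from 1239 to 10170 TPM at 8 weeks and 1562 to 5675 TPM at 2 weeks. The mean log2 value of that list was 6.71 ± 1.17 at 8 weeks and 6.76 ± 0.906 at 2 weeks (SD, n = 5 each), a difference of -0.06 with a 2-sided exact permutation p of 0.929 (0.929 adjusted). Collagen and matrix genes had a median of -0.29 (24 of 31 negative, 0 called). Col1a1, the main fibrillar collagen chain, measured 10.6, 32.4, 5.59, 27.8 and 57.7 TPM at 8 weeks, against 28.8, 16.9, 48.3, 45.8 and 53.0 TPM at 2 weeks, a wide overlap. Sparc, a matrix-binding glycoprotein, averaged 243 ± 69.5 TPM at 8 weeks and 315 ± 44.8 TPM at 2 weeks (SD, n = 5 each). The proliferation marker Mki67 did not pass the filter, and measured 0.206, 0.479, 0.0510, 0.308 and 2.62 TPM at 8 weeks, against 0.266, 0.190, 0.839, 0.409 and 0.510 TPM at 2 weeks. A single 8-week library was high.

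**Figure D3:**
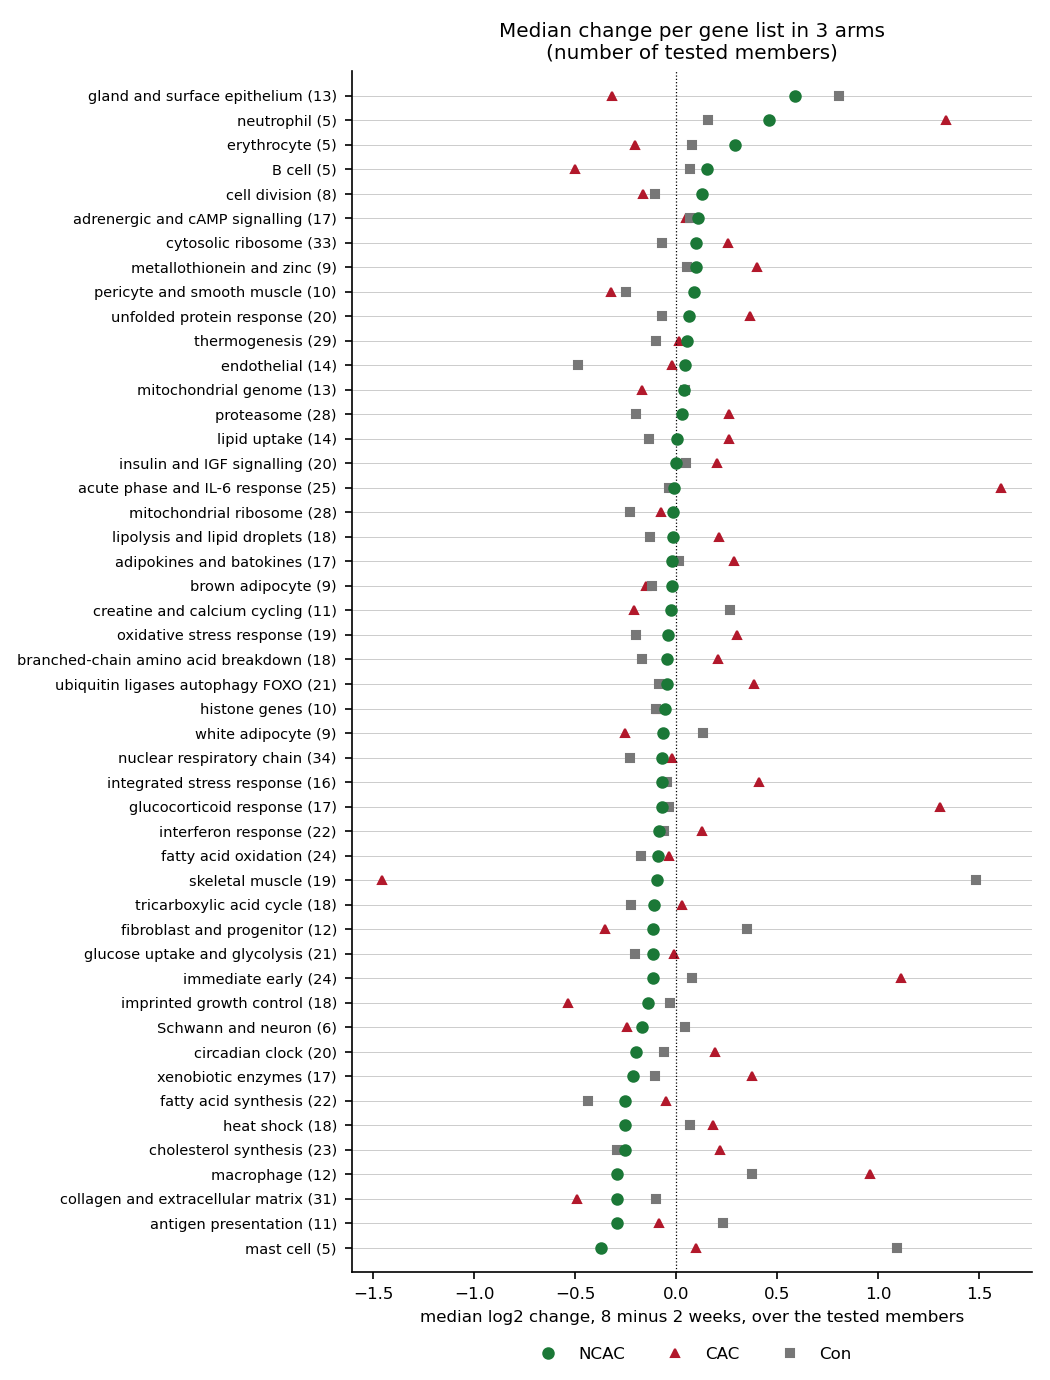
Median log2 difference between 8 and 2 weeks over the tested members of each gene list with at least 5 tested members, for NCAC (circles), CAC (triangles) and Con (squares). The NCAC medians run from -0.37 (mast cell) to 0.59 (gland and surface epithelium), while the acute phase list lies at -0.01 in NCAC, 1.61 in CAC and -0.03 in Con.

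The intermediate weeks of the same arm also gave no call: 0 of 12581 genes (0%) at 4 against 2 weeks, with 328 at an unadjusted p under 0.05, and 0 (0%) at 6 against 2 weeks, with 459. These comparisons share the 2-week libraries with the one above, so the values are set side by side only. Ucp1 averaged 4570 ± 349 TPM in week 2, 7330 ± 2300 in week 4, 6280 ± 2270 in week 6 and 6260 ± 2690 in week 8 (SD, n = 5 each). Its spread was small at 2 weeks and wide at each later week. Lep averaged 33.8 ± 13.9, 15.7 ± 10, 11.7 ± 7.10 and 9.83 ± 4.42 TPM over the same series of weeks (SD, n = 5 each), with its highest mean at 2 weeks. Scd1 averaged 7430 ± 2330, 3650 ± 1440, 3510 ± 810 and 4660 ± 1600 TPM in the same order. S100a9 averaged 1.80 ± 0.809, 4.74 ± 2.24, 6.83 ± 3.09 and 6.73 ± 1.66 TPM, and S100a8 averaged 0.680 ± 0.241, 1.94 ± 1.03, 2.57 ± 1.78 and 2.59 ± 0.667 TPM. Phospho1 averaged 161 ± 40.7, 286 ± 134, 274 ± 87.0 and 270 ± 58.8 TPM. In each of these genes the mean of 2 weeks was the most distant from the other 3, and the means of neighbouring later weeks differed by less than the larger of their SDs.

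**Figure D4:**
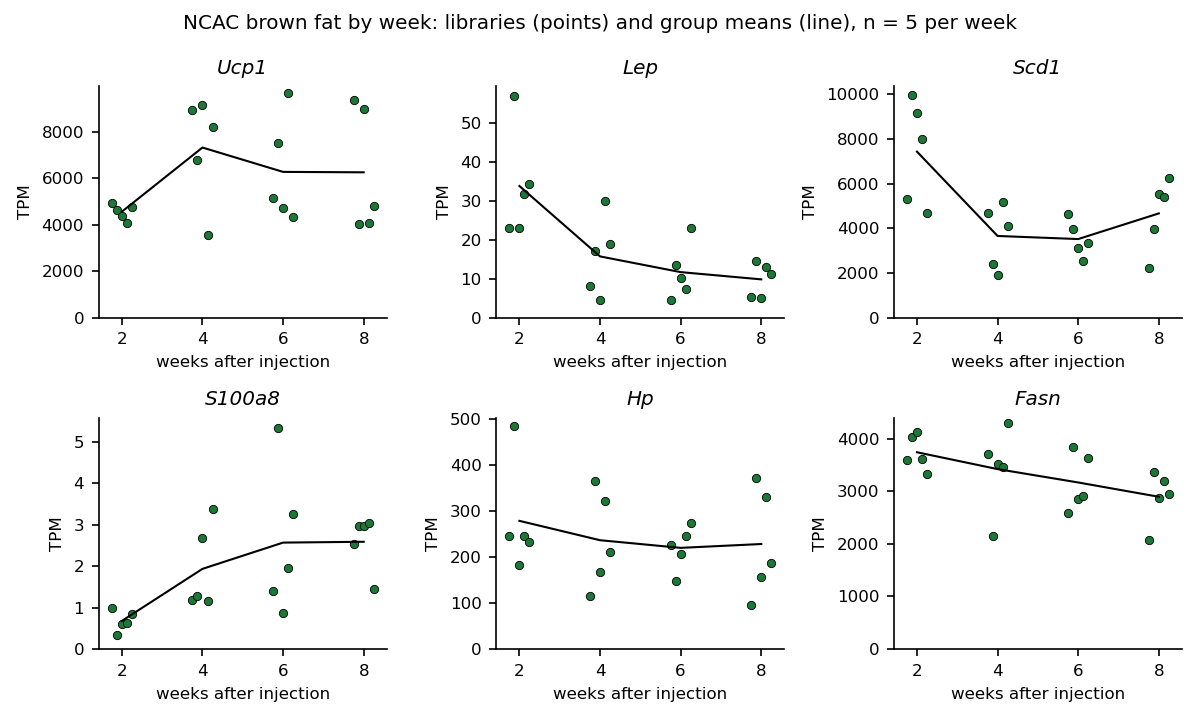
TPM of 6 genes in each NCAC library (points) by week after injection, with group means joined by a line (n = 5 per week). The Lep mean is highest and the S100a8 mean lowest at 2 weeks, and Ucp1 reaches 9680 TPM in 1 library of 6 weeks.

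Whether the NCAC arm moved differently from mock-injected mice was tested as the difference between the NCAC change and the Con change. No gene was called (0 of 12581, 0%, smallest adjusted p 0.914), and 494 had an unadjusted p under 0.05. The median over all genes was 0.08. The smallest p with a higher NCAC change belonged to Tek, the angiopoietin receptor of endothelium. Tek measured 11.9, 11.3, 15.3, 13.4 and 12.7 TPM in NCAC at 8 weeks and 11.5, 11.1, 11.3, 13.5 and 12 TPM in NCAC at 2 weeks, while Con had 10.4, 13.2, 12.3, 10.5 and 12.8 TPM at 8 weeks and 15, 17.4, 17.4, 20 and 18.1 TPM at 2 weeks. The Con libraries of 2 weeks were the highest of these 4 groups, and a single NCAC library, at 15.3 TPM, reached their range. In CAC the Tek mean of 2 weeks was 18.0 TPM, near the 17.6 TPM of Con. The NCAC mean of 2 weeks, 11.9 TPM, was thus below those of Con and CAC. The difference of changes for Tek was 0.64 (limma p 0.000475, adjusted p = 0.914), and Btnl9 and Adgrl4, further genes of vascular endothelium, had 0.78 and 0.62. The other genes among the 8 smallest p with a higher NCAC change were Mrps31 (0.35), Cog2 (0.69), Tipin (0.52), Grtp1 (0.64) and Fastkd1 (0.46). The endothelial list had a median of 0.05 in NCAC, against -0.48 in Con. Its summed TPM at 2 weeks had a median of 216 in NCAC, 320 in Con and 279.5 in CAC. The smallest p with a lower NCAC change belonged to Cpa3, a mast cell protease. Cpa3 averaged 4.69 ± 1.99 TPM in NCAC at 8 weeks and 6.26 ± 2.06 TPM in NCAC at 2 weeks, and 5.91 ± 2.42 TPM in Con at 8 weeks and 2.16 ± 0.854 TPM in Con at 2 weeks (SD, n = 5 each). The Cpa3 difference of changes was -1.47, beside -1.59 for Cma1 and -1.42 for Mcpt4, both also mast cell proteases. The rest of the 8 were Folr2, a folate receptor of resident macrophages (-1.21), Dpt (-0.93), Retnla (-1.81), Sfrp4 (-1.27) and Fndc1 (-0.91). For Cpa3 the Con group of 2 weeks had the lowest mean of the 4 groups.

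The 4 genes called lower in Con at 8 against 2 weeks were the endothelial receptor Tie1, the pyrimidine synthesis enzyme Dhodh, the phosphoinositide kinase adaptor Pik3r6 and the iron-sulfur protein Cisd3. Their NCAC differences were -0.15, -0.20, -0.12 and -0.25, against -0.71, -0.39, -0.48 and -0.54 in Con, and none of the 4 differences between arms was called (adjusted p = 0.914 for each by limma). The median over all genes in Con was -0.11, and after rescaling, which takes it to 0.01, 27 genes were called in Con, 22 of them higher. Leaving out 1 Con library at a time gave 0 to 207 calls, the highest without the second Con library of 8 weeks.

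The NCAC change differed from the CAC change for 654 genes (5.2% of 12581), of which 75 (0.596%) were higher in NCAC and 579 (4.6%) lower. The median over all genes was -0.10, and 0.01 after rescaling, when 855 were called, 308 higher and 547 lower. With mitochondrially encoded genes removed and the rest rescaled, 951 were called, 588 higher and 363 lower, so the share in each direction depends on the scale. The count was 382 without the fifth CAC library of 2 weeks, 418 without the first NCAC library of 8 weeks and 1482 without the third CAC library of 8 weeks.

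The gene with the lowest difference was Itih4, an acute phase plasma protein of the inter-alpha-trypsin inhibitor family best known as a liver product. The promoter of Itih4 and that of Mt2, a metallothionein that binds zinc and copper, are shown because both genes stood among the 5 lowest differences and STAT factors (downstream of IL-6) and the metal-sensing factor MTF1 are textbook regulators of such genes. Sequences are from RefSeq on GRCm38.p6, from 250 bases before to 50 after the start of the gene, 5′ to 3′ on the gene's strand. Capitals mark TTCNNNGAA for Itih4 (chr14:30886226-30886525, plus strand). For Mt2 (chr8:94172368-94172667, plus strand) they mark TGCNCNC on either strand, a loose form of the metal response core in which N is any base.
Itih4: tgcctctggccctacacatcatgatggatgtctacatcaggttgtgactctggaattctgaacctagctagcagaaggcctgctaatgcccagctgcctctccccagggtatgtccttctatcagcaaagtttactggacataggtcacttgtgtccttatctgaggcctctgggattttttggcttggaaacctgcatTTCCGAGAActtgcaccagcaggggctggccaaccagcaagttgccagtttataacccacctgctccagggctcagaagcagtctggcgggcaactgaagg
Mt2: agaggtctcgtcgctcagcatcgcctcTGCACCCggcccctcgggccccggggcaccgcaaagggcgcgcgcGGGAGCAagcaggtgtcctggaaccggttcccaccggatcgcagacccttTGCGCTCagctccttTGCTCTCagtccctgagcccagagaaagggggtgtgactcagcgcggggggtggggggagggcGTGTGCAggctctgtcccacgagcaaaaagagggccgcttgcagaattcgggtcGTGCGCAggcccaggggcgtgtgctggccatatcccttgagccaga
The Itih4 window held 1 match of TTCNNNGAA, a motif present in 8.3% of 32851 promoters of the same length, and the Mt2 window held 6 matches of TGCNCNC, which occurs at least once in 51% of them. The promoters of all 5 genes with the lowest differences were searched. Those of Fkbp5, Cyp2b10 and Cxcl13 each held 0 matches of TTCNNNGAA and 1 of TGCNCNC, and the glucocorticoid response element, found in 0.475% of promoters, had 0 matches in all 5. Mt2 had 0 matches of TTCNNNGAA, Itih4 had 1 of TGCNCNC, and no matches of different motifs overlapped in these windows. A match is a string of letters and no evidence of binding.

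Itih4 measured 1.33, 1.27, 2.62, 0.843 and 1.02 TPM in NCAC at 8 weeks and 1.63, 0.343, 0.951, 1.36 and 1.39 TPM in NCAC at 2 weeks. All 10 NCAC libraries stayed below 3 TPM and the weeks overlapped. In CAC at 8 weeks the 7 libraries of Itih4 had a lowest value of 41.9, a median of 1010 and a highest of 1180 TPM, against 0.902, 3.21, 31.5, 12.1 and 1.67 TPM in CAC at 2 weeks. The NCAC difference was 0.18 (interval -1.16 to 1.51), the CAC difference 6.67, and the difference between the arms -6.49 (SE 0.91, adjusted p = 6.04e-06), or -7.14 without the third CAC library of 8 weeks. Mt2 measured 118, 145, 120, 73.2 and 146 TPM in NCAC at 8 weeks and 114, 51.1, 94.1, 62.9 and 87.0 TPM in NCAC at 2 weeks, which overlapped. In CAC, Mt2 had a median of 2620 TPM at 8 weeks (250 to 4710) and 81.3 TPM at 2 weeks (66.3 to 224). The difference between the arms was -3.77 (SE 0.71, adjusted p = 0.000794).

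Fkbp5, a chaperone-binding immunophilin induced by glucocorticoids, measured 1.94, 2.59, 4.49, 3.02 and 2.90 TPM in NCAC at 8 weeks and 11.4, 16.8, 5.38, 4.30 and 7.10 TPM in NCAC at 2 weeks, with 1 library of 8 weeks inside the 2-week range. Its NCAC difference was -1.21 and its CAC difference 3.73, and the arms differed by -4.94 (SE 0.97, adjusted p = 0.00118). The B cell chemokine Cxcl13 averaged 3.05 ± 4.71 TPM in NCAC at 8 weeks, set by 1 library at 11.5 TPM, and 1.18 ± 0.410 TPM in NCAC at 2 weeks (SD, n = 5 each), and the arms differed by -4.22 (adjusted p = 0.00222). The drug-metabolising enzyme Cyp2b10 measured 5.40, 5.64, 96.5, 6.62 and 0.936 TPM in NCAC at 8 weeks and 28.9, 21.5, 1.87, 1.09 and 11.9 TPM in NCAC at 2 weeks. Its values were scattered in both weeks. The difference between the arms for Cyp2b10 was -4.91 (adjusted p = 0.0288), and that call was lost in 10 of 33 alternatives, with adjusted p up to 0.0691.

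On the other side stood genes that fell in CAC and did not pass the test in NCAC. Cdkn1c, an imprinted cell cycle inhibitor, averaged 16.4 ± 2.55 TPM in NCAC at 8 weeks and 17.2 ± 1.57 TPM in NCAC at 2 weeks (SD, n = 5 each), against 4.48 ± 1.32 TPM in CAC at 8 weeks (SD, n = 7) and 17.2 ± 2.05 TPM in CAC at 2 weeks (SD, n = 5). The arms differed by 1.69 (SE 0.30, adjusted p = 0.000382). Perm1, a regulator of oxidative genes in muscle, measured 28.2, 11, 30.7, 18.7 and 24.1 TPM in NCAC at 8 weeks and 20.7, 25.4, 19.7, 16.4 and 20.8 TPM in NCAC at 2 weeks, which overlapped, and the arms differed by 1.72 (adjusted p = 0.00391). Fndc5, the precursor of the secreted peptide irisin, differed between the arms by 1.99 (adjusted p = 0.00481), with 0.08 in NCAC and -1.91 in CAC. Perm1 and Fndc5 are also expressed in skeletal muscle, whose list had a median of -0.10 in NCAC and -1.45 in CAC. Both calls were kept in all 33 alternatives, among them a fit with the mean of the muscle list as a covariate. That fit uses a common slope for all groups and cannot separate muscle RNA from RNA of the fat itself. The part of muscle RNA in these results was not tested. Ppara, the fatty acid-sensing nuclear receptor, differed by 1.62 (adjusted p = 0.0214) and Lgr6, a receptor for R-spondins, by 2.18 (adjusted p = 0.0382). The Lgr6 call was lost in 14 of 33 alternatives and the Ppara call in 2.

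**Figure D5:**
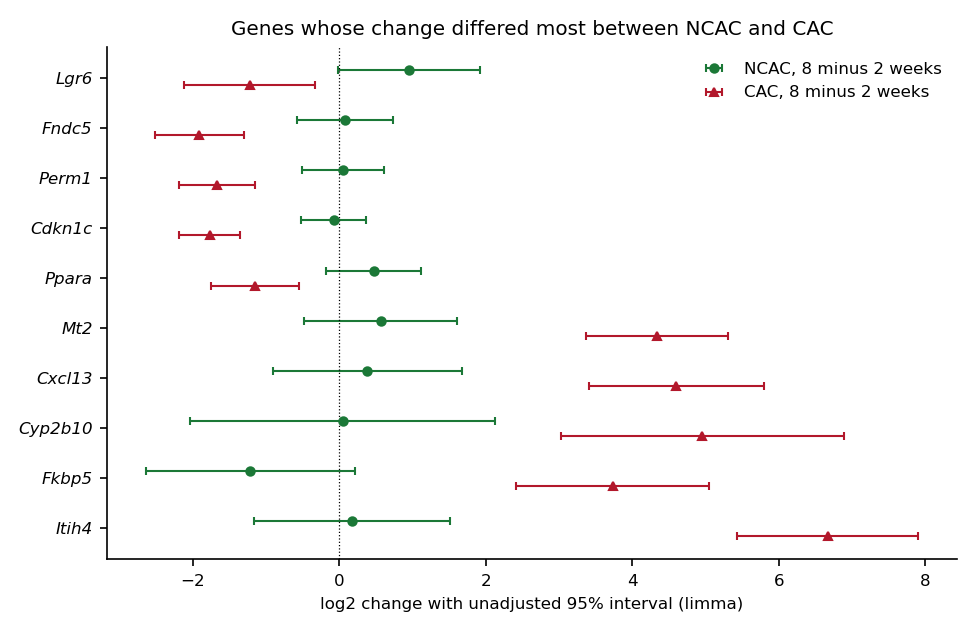
Fitted log2 difference between 8 and 2 weeks with its unadjusted 95% interval, for NCAC (green circles) and CAC (red triangles), for the 5 genes with the highest and the 5 with the lowest called difference between the arms. Every NCAC interval includes 0 and no CAC interval does, with Itih4 at 0.18 in NCAC and 6.67 in CAC.

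By list, 18 of the 25 acute phase genes had a lower change in NCAC than in CAC, beside 4.6% of all genes, and 0 a higher one. The lists were chosen with earlier results of these data known, so the list counts are descriptive and not independent evidence. The acute phase count was 17 after rescaling, 18 with quantile normalization, 17 with mitochondrial genes removed and 22 without the third CAC library of 8 weeks. Over all genes the lower counts in the same order were 547, 540, 363 and 1330, against 579 on the deposited TPM. These background counts apply to each list below as well, and the largest is the one without that CAC library. In CAC alone 23 of these 25 acute phase genes rose, beside 15% of all genes. Hp differed by -3.45 (adjusted p = 0.00208) and Serpina3n by -3.76 (adjusted p = 0.000816). In the glucocorticoid list 5 of 17 were lower and 1 higher in NCAC: Fkbp5, Mt2, Tsc22d3 (-2.43), Mt1 (-2.90) and Hsd11b1 (-1.97) below, and Cdkn1c above, with 10 lower and 1 higher without the third CAC library of 8 weeks. Macrophage markers were lower in 6 of 12, with Csf1r at -0.97 and Cd163 at -2.11, and this count was 6 under each of the 3 other scales (with 1 higher once mitochondrial genes were removed) and 8 without that library. Macrophage marker sums were 121 to 199 TPM in NCAC at 8 weeks and 97.2 to 242 TPM in NCAC at 2 weeks, against 266 to 679 TPM in CAC at 8 weeks and 179 to 276 TPM in CAC at 2 weeks, and their part in the acute phase differences was not tested. Of the 29 thermogenesis genes 1 (Ppara) was higher in NCAC, beside 75 (0.596%) of all 12581 genes on the deposited TPM. The thermogenesis count was 2 after rescaling, beside 308 of all genes, and 3 with quantile normalization, beside 349. With mitochondrial genes removed it was 3, beside 588 of 12568 genes. Without the third CAC library of 8 weeks it was 2, beside 152 of 12581 genes.

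For Ucp1 the call depended on the scale. Its change was 0.35 in NCAC and -0.79 in CAC, a difference of 1.15 that was not called on the deposited TPM (adjusted p = 0.0577 by limma). The Ucp1 difference was called after rescaling (1.28, adjusted p = 0.0195), with quantile normalization (1.55, adjusted p = 0.00421) and with mitochondrial genes removed (1.36, adjusted p = 0.0113). Without the third CAC library of 8 weeks it was 1.01 (adjusted p = 0.0608).

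Without that library the other named differences between the arms kept their direction and their calls. Cyp2b10, which had 5.47 TPM in it and a median of 189 TPM over the 7 libraries, differed by -5.69 (adjusted p = 0.00275). The differences were -5.48 for Fkbp5, -4.82 for Cxcl13, -4.26 for Mt2, -4.02 for Hp and -4.28 for Serpina3n. On the higher side they were 1.75 for Cdkn1c, 1.75 for Perm1, 2.19 for Fndc5, 1.72 for Ppara and 2.32 for Lgr6. Among the listed glucocorticoid and macrophage genes they were -2.62 for Tsc22d3, -3.33 for Mt1, -2.16 for Hsd11b1, -1.06 for Csf1r and -2.35 for Cd163. The CAC change of Lep was -1.93 without it (limma adjusted p = 0.00257). Of the 25 acute phase genes 23 still rose in CAC, beside 2959 of all 12581 genes.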

How the data were processed

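RNA of brown adipose tissue was measured in 62 libraries by stranded mRNA sequencing (TruSeq kit, Illumina NovaSeq), per the labels' protocols. The extraction text of the labels also speaks of LLC cells and of a week outside this time course, and 1 number occurs in 2 titles at 4 weeks. Groups follow the sample labels. The authors deposited TPM for 47643 gene symbols on mm10, per the submitters' processing notes. The aligner, annotation and counting are not given in the sources used here. All columns were assigned to samples by title, and no 2 columns were identical. TPM holds no read totals, which leaves the depth unknown and allows no counting interval. Because the mitochondrial share of a fixed total varies between libraries, rescaled values are given where they matter.

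Values were taken as log2(TPM + 1). A gene entered if 5 or more libraries had 1 TPM or more (12581 genes). Means of 12 groups were fitted in 1 limma model (limma 3.58.1, R 4.3.3, trended empirical Bayes), with Benjamini-Hochberg adjustment over all genes within each contrast and calls at an adjusted p under 0.05. Intervals are unadjusted, at 95%. Library measures used 2-sided exact permutation tests. The pipeline was tested on simulated data. The rule for named genes was the highest and lowest called changes or, with under 5 calls, the 8 smallest p of each sign, in genes averaging 5 TPM or more in the higher group and not predicted genes; up to 4 members per list by smallest p; and a fixed set of 16 genes. Of these, the text gives values for those that carry the account, and the called members of a list beyond the rule were named after their values were seen. The members and the 51 gene lists (34 of processes, 17 of cell types) were chosen with earlier results of these data known. Replicate numbers were not used to pair the samples in the main model (see the closing section). Positions are from GENCODE for mm10 and promoters from RefSeq (GRCm38.p6). Alternatives were the pseudocount, filters, scaling, fit, weights, replicate block, a muscle covariate and leaving out each library. Figures used Python 3.11.15 and matplotlib 3.10.9. Some items are not reported here.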

Additional observations from a re-analysis of the deposited data

Results flagged for a closer look

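For 14 of 156 sets of 5 values, the highest or lowest library was far from the other 4 by Dixon's test at 95%, and chance alone flags about 1 in 20. Among the NCAC libraries of 8 weeks, replicate 5 stood out in 3 genes: Mki67 at 2.62 TPM (others 0.051 to 0.479), S100a8 at 1.45 TPM (others 2.53 to 3.04) and Cd3e at 0 TPM (others 0.0267 to 0.0298). Replicate 3 stood out for Cxcl13 at 11.5 TPM (others 0.612 to 1.26) and Adgrl4 at 30.5 TPM (others 20.8 to 22.8), replicate 1 for Lgr6 at 15.7 TPM (others 2.82 to 4.67), and replicate 4 for Cdkn1c at 20.9 TPM (others 14.8 to 15.8). Among the NCAC libraries of 2 weeks, replicate 2 stood out for the mitochondrial share at 61.7% (others 57.2 to 57.9), for Lgr6 at 7.85 TPM (others 1.22 to 1.66) and for Chst11 at 4.29 TPM (others 7.92 to 8.72). Replicate 3 stood out for Acat2 at 240 TPM (others 181 to 196) and Per2 at 18.0 TPM (others 19.5 to 20.1), replicate 1 for Cry1 at 12.7 TPM (others 7.4 to 8.38), and replicate 5 for Cd3e at 0.0577 TPM, where the other 4 were at 0.

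The change from 2 to 8 weeks differed between NCAC and CAC, by the limma test of the difference itself, for 654 genes. The genes named from that count were Lgr6 (2.18), Fndc5 (1.99), Perm1 (1.72), Cdkn1c (1.69) and Ppara (1.62) above, and Itih4 (-6.49), Fkbp5 (-4.94), Cyp2b10 (-4.91), Cxcl13 (-4.22) and Mt2 (-3.77) below, as log2 differences, NCAC change minus CAC change.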

How the results depend on the processing

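The count of 0 called genes for NCAC at 8 against 2 weeks was 0 under all planned settings except library weights, which gave 6: S100a9 higher, and Tmem222, Mxd4, Rps27rt, Mknk2 and Mfsd3 lower. It was 0 without each of the 10 libraries in turn (306 to 699 genes at an unadjusted p under 0.05). A linear trend over the 4 weeks called 0 genes. The difference from the Con change was 0 in all settings and without each of 20 libraries. The replicate numbers shared by the groups were checked as a block: 3 of 5 pairs correlated above 0.1 (-0.0992 to 0.309) and 2 of 5 libraries correlated best with their own number. So few pairs cannot settle whether the numbers mark a pairing, and the labels give none. With the replicate block 0 genes were called in NCAC, 410 for the difference from CAC, 9 in Con and 1521 in CAC. Fits of only the groups compared gave 382 for the difference from CAC, 1299 in Con and 1170 in CAC, and library weights gave 3362, 4066 and 4242. Con gave 29 with a pseudocount of 0.1, 56 with a filter at 5 TPM, 27 after median-of-ratios rescaling, 17 with mitochondrial genes removed, and 0 with no filter, with quantile normalization and with the muscle covariate. NCAC at 6 against 2 weeks gave 2 with no filter and 331 with library weights. Leaving out 1 library gave 382 to 1482 for the difference from CAC, 0 to 207 in Con, 1916 to 3823 in CAC, 0.713 to 2.20 points for the mitochondrial share and -0.481 to 0.275 for the muscle mean. Without libraries 3 and 4 of Con at 4 weeks, chosen after seeing the data, the counts were 0 for NCAC, 0 for the difference from Con and 863 for the difference from CAC.

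The sign turned for Adipoq under median-of-ratios rescaling (0.0371), quantile normalization (0.0627) and removal of mitochondrial genes (0.044), and under library weights for Cyp2b10 (-0.0752), Fndc5 (-0.137), Hp (0.0981), Itih4 (-0.042) and Perm1 (-0.09), all within their intervals. Leaving out 1 library at a time turned it for Adipoq (-0.0807 to 0.0629), Cyp2b10 (-0.8096 to 0.6038), Fndc5 (-0.0869 to 0.2008), Perm1 (-0.0688 to 0.2805), Adrb3 (-0.0046 to 0.4019) and Cxcl13 (-0.152 to 0.5862). Where a count moved, the cause was not tested. Without read totals, the precision of low values is unknown. Gene values without the third CAC library of 8 weeks, and the Ucp1 values by scale, were also chosen after seeing the data.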
